A study of Mus musculus with 16 samples.

Results

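The 10 genes described here are immediate early genes of the neuronal activity response: Fos, Fosb, Junb, Egr1, Egr2, Arc, Npas4, Nr4a1, Ier2 and Dusp1. They were selected by gene symbol, with no measured value as the criterion, although earlier results of these data were known. All 10 were found among the 21878 mRNAs of the count and FPKM tables. According to the labels and methods, the libraries were made from microglia that had been sorted from mouse brains as CD11b+/CD45int cells, with 1 library per mouse. The EAE group (n = 8) held mice with experimental autoimmune encephalomyelitis, a model of multiple sclerosis, induced with MOG35-55 peptide in complete Freund's adjuvant plus pertussis toxin. The PBS group (n = 8) held control mice that had been injected with PBS, so that the groups differed in peptide, adjuvant and toxin together. All 16 mice were wild-type female C57BL/6 animals, 8 weeks old at the start, and EAE brains were taken 14 days after induction. Each library is called by its group and number (EAE 5, PBS 3).

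Immediate early genes are transcribed within minutes of a stimulus from factors that are already present in the cell, mainly CREB bound to cAMP response elements (CREs) and SRF with its partners. In neurons the stimulus is usually calcium entry during synaptic activity, and the products are transcription factors, the synaptic protein Arc and feedback regulators that set off later effector genes. The same genes respond to growth factors, cytokines and mechanical or enzymatic handling in most cell types, microglia included, and Npas4 is the member most closely tied to neuronal calcium signals.

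Total counts per library ranged from 24587443 to 34184576, and all 10 genes passed the filter of at least 16 counts over the 16 libraries. Markers of other brain cells were abundant under the microglia label. The summed FPKM (fragments per kilobase of transcript, scaled to library depth) of 17 neuron markers was 1698–1925 with EAE and 1873–2104 with PBS, and that of 17 microglia markers was 225–360 and 209–339. Astrocyte markers (12 genes) summed to 1331–2016 FPKM with EAE and 1558–1854 FPKM with PBS, and no marker of any of these lists was at 0 in all libraries. The values below therefore describe the RNA of the library as a whole, and fewer cells of a type and less RNA per cell cannot be told apart in such bulk samples.

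The 250 bases before the transcription start were available in RefSeq (GRCm38.p6) for 7 of the 10 genes, the exceptions being Arc, Ier2 and Egr1. They were searched for the CRE half-site, spelled TGACG on 1 strand and CGTCA on the other, and for the motifs named below, all on both strands except TATAAA, which was read on the gene's strand. Those of Fos and Npas4 are shown because these genes belong to the contrasting patterns described below, and capitals mark the CRE half-sites. The Fos sequence lies at chr12:85473640-85473889 on the + strand and the Npas4 sequence at chr19:4989972-4990221 on the − strand.
Fos: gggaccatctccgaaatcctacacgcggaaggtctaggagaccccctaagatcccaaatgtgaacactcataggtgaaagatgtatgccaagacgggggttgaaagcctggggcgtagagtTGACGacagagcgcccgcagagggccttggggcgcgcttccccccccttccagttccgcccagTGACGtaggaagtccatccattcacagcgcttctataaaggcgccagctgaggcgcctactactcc
Npas4: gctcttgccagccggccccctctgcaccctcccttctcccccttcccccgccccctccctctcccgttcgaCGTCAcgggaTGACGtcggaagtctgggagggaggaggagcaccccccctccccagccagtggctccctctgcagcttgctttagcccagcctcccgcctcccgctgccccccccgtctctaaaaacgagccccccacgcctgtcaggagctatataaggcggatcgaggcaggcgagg
The half-sites of Fos began 129 and 66 bases before the start, and those of Npas4 began 179 and 169 bases before it. A half-site was found before at least 1 start of all 7 genes, with Egr2 having it at 3 of 5 annotated starts, against 17.8% of 32851 RefSeq promoters. The full palindrome TGACGTCA, which contains both half-sites, occurred only in Dusp1 (1.55% of promoters). The CArG box, the letter pattern bound by SRF, was present at 4 of the 5 Egr2 starts (1.47% of promoters). Of these, 3 have overlapping stretches that hold the same CArG box and the same half-sites, so they are not independent matches. The EGR motif GCGNGGGCG was present in Fosb and Nr4a1 (4.70% of promoters). TATAAA stood 33 bases before the start of Fos (7.59% of promoters). The AP-1 motif TGANTCA, bound by Fos-Jun dimers, was found in none of these promoters and in 6.75% of all. A match is a description of the letters, and binding was not measured in these samples.

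Values per library are given as CPM, counts scaled to a common library size after TMM normalization. Fos (chromosome 12, 85473890–85477273, + strand) encodes the AP-1 subunit most widely used as an activity marker. In EAE mice the lowest, median and highest library had 23.96, 39.5 and 55.0 CPM of Fos, and in PBS-treated mice 26.3, 37.9 and 59.0 CPM. EAE 1 to EAE 4 were low, EAE 5 to EAE 8 were high with no library in between, and the PBS libraries filled the same range. The log2 fold change (log2FC) of EAE over PBS was −0.019 (SE 0.18, adjusted p = 0.972 by the quasi-likelihood test of edgeR, Benjamini-Hochberg adjusted over 17885 mRNAs).

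Junb (chromosome 8, 84974484–84978718, − strand) encodes a Jun-family partner of Fos. Its lowest, median and highest CPM were 27.9, 45.3 and 59.9 in EAE mice and 24.8, 52.3 and 66.2 in PBS-treated mice. EAE 6, EAE 7 and EAE 8 were almost equal, at 59.6–59.9 CPM, whereas PBS 4 and PBS 6 lay below every EAE library. The gene overlaps Prdx2 on the opposite strand, and since the strand setting of the counting is not given in the sources used here, reads of the overlap could be assigned to either gene. Fosb (chromosome 7, 19302696–19310051, − strand), which encodes a Fos relative whose truncated form accumulates with repeated stimulation, had 6.09, 9.81 and 23.9 CPM in EAE mice and 6.39, 12.5 and 19.7 CPM in PBS-treated mice. EAE 5 was the highest of all 16 libraries for Fosb and PBS 3 came next, and both groups reached down to the same level.

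Egr1 encodes a zinc-finger transcription factor linked to synaptic plasticity. Its lowest, median and highest CPM were 50.7, 69.2 and 89.6 in EAE mice and 45.5, 66.6 and 103 in PBS-treated mice. PBS 3 stood above the other PBS libraries, and the groups overlapped over most of their range. Egr2 (chromosome 10, 67535475–67542188, + strand), a relative of Egr1 that also controls myelination in Schwann cells, was the least abundant member, with 2.08, 3.14 and 6.42 CPM in EAE mice and 2.23, 3.25 and 5.19 CPM in PBS-treated mice. Ier2 (chromosome 8, 84661331–84662852, − strand), a small nuclear regulator, had 7.28, 10.8 and 14.3 CPM in EAE mice and 5.58, 11.98 and 15.7 CPM in PBS-treated mice. Dusp1 (chromosome 17, 26505590–26562128, − strand) encodes a phosphatase that switches off MAP kinases. Its lowest, median and highest CPM were 33.7, 44.3 and 61.1 in EAE mice and 37.6, 45.9 and 58.0 in PBS-treated mice, and the ratio of its highest to its lowest library over both groups was the smallest of the 10 genes. The annotated span of Dusp1 overlaps Ergic1 and 3 other annotated genes, so its counts carry the same limit as those of Junb.

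Arc (chromosome 15, 74669083–74672570, − strand) encodes a cytoskeletal protein of active synapses that regulates AMPA receptor traffic. Its lowest, median and highest CPM were 28.2, 32.0 and 119 in EAE mice and 33.7, 54.6 and 89.8 in PBS-treated mice. The libraries fell into a low and a high set: EAE 1, 2, 3, 6, 7 and 8 and PBS 5, 7 and 8 lay at 28.2–36.7 CPM, and EAE 4, EAE 5 and the other PBS libraries lay at 53.2–119 CPM. The log2FC was −0.30 (SE 0.28, adjusted p = 0.623 in edgeR's quasi-likelihood test). The value depended on single libraries: the log2FC was −0.68 without EAE 5, the highest library (adjusted p = 0.0522 in the same edgeR test), and −0.17 without PBS 3 (adjusted p = 0.825).

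Npas4 (chromosome 19, 4984355–4990316, − strand), a transcription factor of inhibitory synapse formation, had 11.01, 13.2 and 52.7 CPM in EAE mice and 11.2, 17.4 and 35.9 CPM in PBS-treated mice. The high libraries were those of Arc apart from PBS 2, which had 15.02 CPM of Npas4, and EAE 5 was again the highest. Without EAE 5 the log2FC of Npas4 moved from −0.14 (SE 0.31) to −0.56, with an adjusted p of 0.183 in the edgeR test. Nr4a1 (chromosome 15, 101254269–101274795, + strand), an orphan nuclear receptor, ranged less, with 41.6, 48.9 and 72.2 CPM in EAE mice and 39.5, 42.7 and 61.9 CPM in PBS-treated mice. EAE 5 was the highest library here too. It also had the highest summed FPKM of the 16 libraries for astrocyte markers (2016) and for 11 oligodendrocyte markers (1335) and the lowest for neuron markers (1698), and the part of this in its immediate early gene values was not tested.

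**Figure D1:**
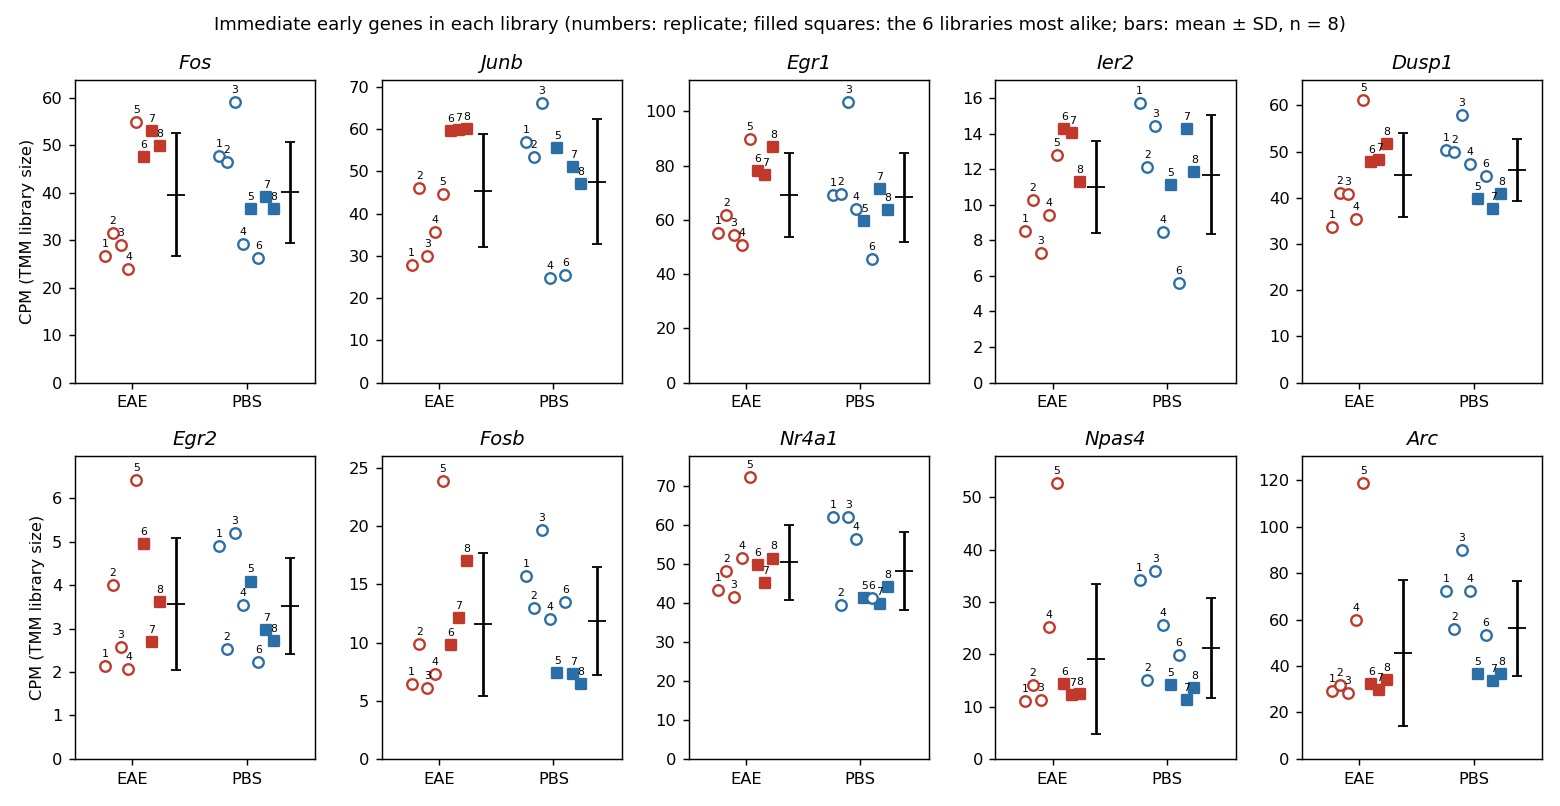
CPM of each immediate early gene (vertical axes from 0, in CPM) in the 8 EAE (red) and 8 PBS (blue) libraries, numbered by replicate, with the mean ± SD of each group as a black bar and the 6 libraries most alike within their group as filled squares. The groups overlap for every gene, and EAE 5 stands far above the other EAE libraries for Arc (119 CPM), Npas4 (52.7 CPM) and Nr4a1 (72.2 CPM).

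None of the 10 genes differed between EAE and PBS-treated mice at an adjusted p under 0.05 in edgeR's quasi-likelihood test, and none had an unadjusted p under 0.05 in that test, in DESeq2 or in limma-voom. Among all 17885 mRNAs tested, 2.42% had an adjusted p under 0.05 at any fold, 0.117% also had a |log2FC| over 1, and 17.4% had an unadjusted p under 0.05. The log2FC was positive for Egr1 (0.018), Egr2 (0.023) and Nr4a1 (0.064) and negative for the other 7 genes, with a median of −0.033 against 0.0092 over all mRNAs tested. The precision differed widely between the genes. The 95% interval of the log2FC was −0.26 to 0.19 for Dusp1, −0.18 to 0.31 for Nr4a1 and −0.27 to 0.30 for Egr1, whereas it was −0.79 to 0.52 for Npas4 and −0.88 to 0.28 for Arc. Changes of 1 log2 unit lay outside the interval of each of the 10 genes, and smaller changes within these intervals were not detectable at this spread.

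The spread between libraries of a group was large, and differences between mice and between library preparations cannot be told apart in it. edgeR's biological coefficient of variation, the relative SD left after counting noise, had a median of 0.113 over the 14759 mRNAs with a mean of at least 1 CPM. It was 0.427 for Npas4, higher than for 99.1% of these mRNAs, and 0.382 for Arc, higher than for 98.3%. Fosb (0.368), Egr2 (0.316), Junb (0.270), Fos (0.250) and Ier2 (0.239) followed. Egr1 (0.191), Nr4a1 (0.163) and Dusp1 (0.151) were the steadiest members, and all 10 lay above the median. From the lowest to the highest library, CPM differed 1.81-fold for Dusp1 and 4.79-fold for Npas4.

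Levels of different genes were compared as FPKM over the 16 libraries. Junb was the highest at 25.2 ± 7.32 FPKM (SD, n = 16), followed by Dusp1 at 23.4 ± 3.89, Egr1 at 22.4 ± 4.91, Fos at 19.0 ± 5.39 and Arc at 16.6 ± 8.56 FPKM. Each of these 5 genes differed from its neighbour in the order by less than the spread between libraries, as did Arc from Nr4a1 (9.74 ± 1.91 FPKM). Ier2 (7.44 ± 1.88 FPKM) lay below Nr4a1 and above Fosb (2.84 ± 1.27 FPKM) by more than these SDs. Fosb and Npas4 (2.55 ± 1.51 FPKM) were alike within their spread, and Egr2 was the lowest at 0.374 ± 0.137 FPKM. The gene length implied by counts and FPKM was 9474 bases for Egr2 and 7916 bases for Npas4, more than their annotated spans of 6714 and 5962 bases, so the FPKM levels of these 2 genes are low relative to the others.

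The 10 genes did not rise and fall as 1 group. After subtraction of the group means, Pearson's r of log2(CPM + 0.5) over the 16 libraries was 0.922 between Fos and Egr1, 0.838 between Fos and Junb, 0.814 between Fos and Ier2 and 0.881 between Junb and Ier2. It was 0.969 between Arc and Npas4, 0.911 between Npas4 and Nr4a1 and 0.855 between Arc and Nr4a1. Between these sets of genes the values were lower, at 0.274 between Fos and Arc and −0.028 between Junb and Arc. Fosb and Dusp1 (0.916 with each other) lay between, with 0.662 and 0.793 to Fos and 0.725 and 0.633 to Arc, and the median over the 45 pairs was 0.633. These values are descriptive, since the libraries share processing that is not known in full and Arc falls into separate sets of libraries.

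**Figure D2:**
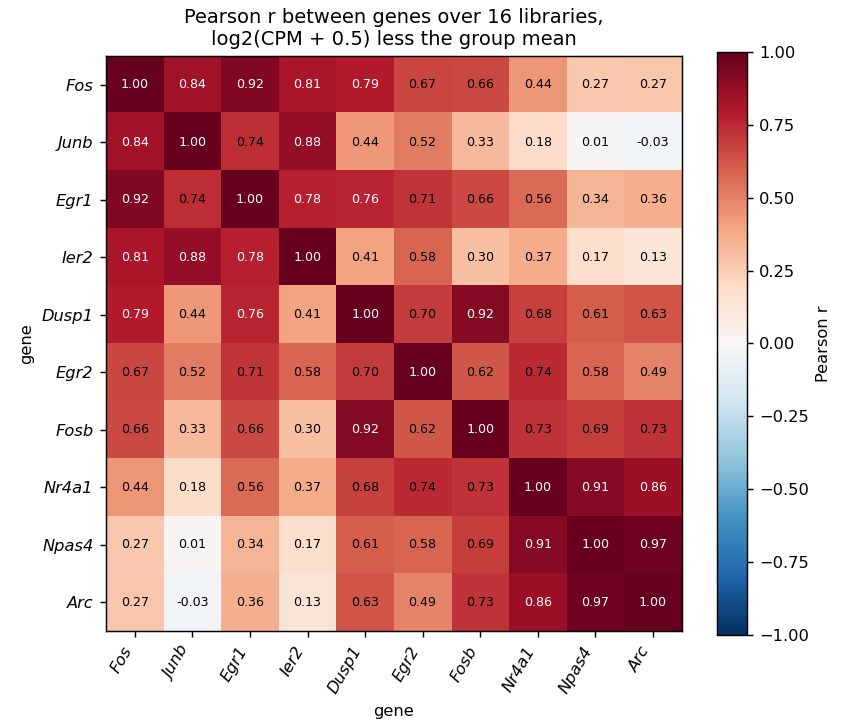
Pearson r between each pair of the 10 genes over the 16 libraries, from log2(CPM + 0.5) less the group mean (colour from −1 to 1, value in each cell). Fos, Junb, Egr1 and Ier2 form a block at the upper left and Nr4a1, Npas4 and Arc at the lower right, with r near 0 between Junb and Arc (−0.028).

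Fos was then tested against each of the other 9 genes within each group, by exact two-sided permutation tests with Benjamini-Hochberg adjustment over the 18 relations. Of these, 7 had an adjusted p under 0.05. In PBS-treated mice (n = 8), Fos was related to Junb (Pearson's r = 0.896, exact p = 0.00107, adjusted p = 0.00640; Spearman's rho = 0.905, exact p = 0.00456, adjusted p = 0.0205). Without PBS 3 and PBS 6, the libraries farthest from the median of Fos, r with Junb was 0.832. Ier2 gave r = 0.859 (exact p = 0.00442, adjusted p = 0.0159; Spearman's rho = 0.929, exact p = 0.00223, adjusted p = 0.0201), and r was 0.844 without the same libraries. For Junb and Ier2, PBS 4 was still kept and lay apart, at 24.8 CPM of Junb and 8.49 CPM of Ier2. The other PBS libraries that were kept had 47.0–57.0 CPM of Junb and 11.1–15.7 CPM of Ier2. No r was computed without PBS 4 as well, so its part in these 2 values is not known. For Egr1, r was 0.874 (exact p = 0.00387, adjusted p = 0.0159; Spearman's rho = 0.810, exact p = 0.0218, adjusted p = 0.0653), and it dropped to 0.583 without PBS 3 and PBS 6, so that this relation rested in part on these libraries. Arc (r = 0.356, exact p = 0.382, adjusted p = 0.457; Spearman's rho = 0.333, exact p = 0.428, adjusted p = 0.481) and Npas4 (r = 0.337, exact p = 0.407, adjusted p = 0.457; Spearman's rho = 0.357, exact p = 0.389, adjusted p = 0.481) did not pass.

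In EAE mice the 4 relations that passed were with Egr1, Dusp1, Fosb and Ier2, but Fos there fell into 4 low and 4 high libraries, so no r is given for that group. EAE 5, 6, 7 and 8 were above EAE 1, 2, 3 and 4 for Fos, Egr1, Ier2 and Dusp1 without overlap, and the remaining immediate early genes overlapped. This split was set by Fos itself, and the share of all mRNAs that split in the same way was not computed. More mRNAs had reads in EAE 5, 6, 7 and 8 (17955–18042) than in EAE 1, 2, 3 and 4 (17565–17644). The part of this difference in the split was not tested. Among the 6 EAE libraries with low Arc, r with Arc was 0.990 for Nr4a1, 0.831 for Fosb, 0.772 for Egr1, 0.770 for Egr2, 0.751 for Junb and 0.665 for Npas4. The low r between Junb and Arc over all libraries was therefore not seen in this subset, which spanned only 28.2–34.01 CPM of Arc. It was seen in PBS-treated mice without PBS 3 and PBS 7, the libraries farthest from the median of Arc. There r with Arc was −0.34 for Junb, −0.0023 for Ier2 and 0.23 for Egr1, but 0.89 for Fosb and 0.87 for Npas4. These PBS libraries had low and high Arc, so the subsets are not alike. The values are a description because the EAE subset was defined by Arc itself. The number of Fos relations past the threshold fell to 4 without PBS 6. Within the sets of libraries described next, under 6 libraries of a group remained and no relation was computed.

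**Figure D3:**
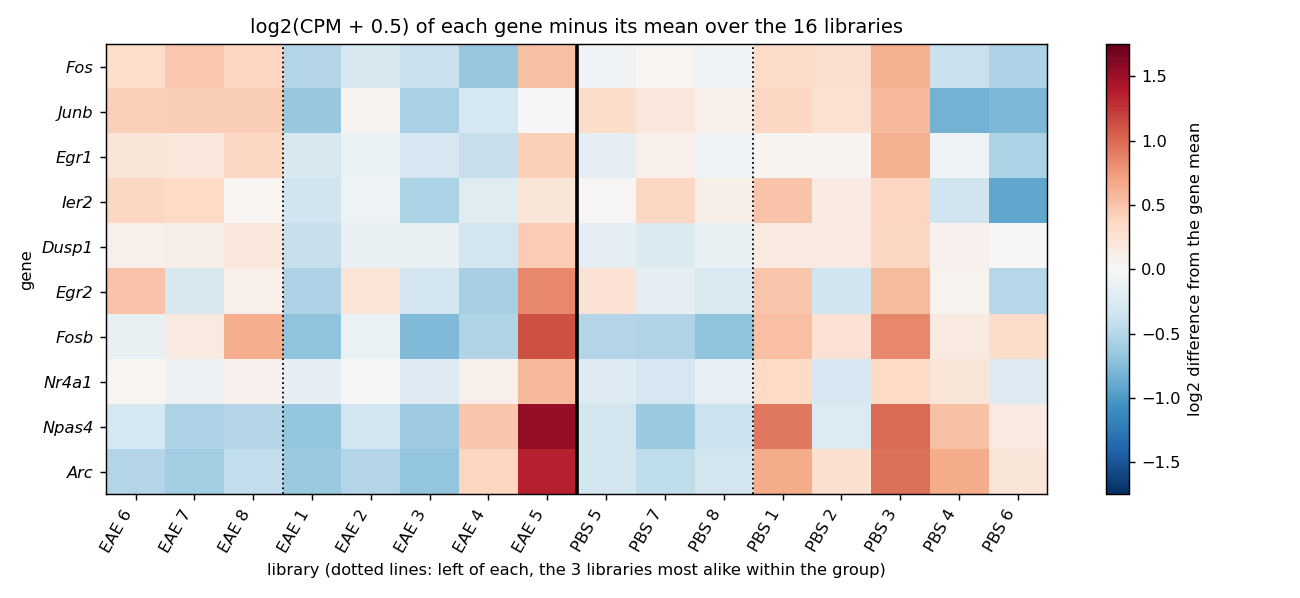
Level of each gene in each library as log2(CPM + 0.5) minus the mean of that gene over the 16 libraries (colour, in log2 units), with EAE libraries left and PBS libraries right of the thick line and the 3 libraries most alike of each group left of the dotted lines. Arc and Npas4 are low in EAE 6, EAE 7, EAE 8, PBS 5, PBS 7 and PBS 8, while Fos and Junb are high in the first 3 of these.

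Across all mRNAs, the libraries of a group were not equally alike. The median squared difference of a pair, divided by that of Poisson counting noise, was 3.12–4.03 for pairs within EAE 6, 7 and 8 or within PBS 5, 7 and 8, and 6.07–24.5 for all other pairs of a group. The labels name no batch, and these 6 libraries, taken as a set from an earlier look at the same data, are compared here beside the other 10. They are called the 6 libraries most alike, which means alike within their own group. Likeness was computed only between libraries of the same group. It therefore does not show that EAE 6, 7 and 8 match PBS 5, 7 and 8 or share any handling with them. In both conditions Arc was low in the set, at 29.8–34.01 CPM in its EAE libraries and 33.7–36.7 CPM in its PBS libraries. The other PBS libraries had 53.2–89.8 CPM of Arc, and 3 of the other 5 EAE libraries had 28.2–32.0 CPM.

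Within the 6 libraries most alike, Fos, Fosb, Junb, Egr1, Nr4a1 and Dusp1 were higher in EAE mice at an adjusted p under 0.05 in edgeR's quasi-likelihood test. That is 6 of 10 genes, where 10.3% of the 18033 mRNAs tested were called higher and 12.7% lower, 23% in all. Every EAE library of the set was above every PBS library for the same 6 genes, which held for 17.8% of mRNAs (the reverse held for 19.3%). Fosb had 9.75, 12.1 and 17.0 CPM in the EAE libraries and 6.39, 7.31 and 7.39 CPM in the PBS libraries, a log2FC of 0.88 (SE 0.15, adjusted p = 6.22e-05 in the edgeR test). Fos had 47.6, 49.9 and 53.1 CPM in the EAE libraries and 36.7, 36.7 and 39.2 CPM in the PBS libraries, with a log2FC of 0.42 (SE 0.059, adjusted p = 6.67e-06 in the edgeR test). The log2FC was 0.32 for Dusp1, 0.31 for Egr1, 0.22 for Junb and 0.22 for Nr4a1. Arc (−0.16, adjusted p = 0.0920), Npas4 (−0.0052, adjusted p = 0.981), Egr2 (0.20, adjusted p = 0.574) and Ier2 (0.090, adjusted p = 0.619) did not pass in this edgeR fit. Because the set was picked for its likeness, the spread between its libraries is small by choice and these p-values are too small.

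Other lists moved in the same 6 libraries, where 10.3% of all mRNAs tested were higher and 12.7% lower. Among 22 other immediate early transcription factors, 5 were higher in EAE mice and 1 was lower. Among 26 immediate early signalling and RNA-decay regulators, 8 were higher and 4 lower. The oligodendrocyte list had 1 of 11 markers higher and 5 lower, and the microglia list had 2 of 17 higher and 3 lower. Of the 12 astrocyte markers, 11 were lower in EAE mice and none was higher, and their summed FPKM was 1331–1447 in EAE and 1558–1638 in PBS libraries. Of the 17 neuron markers, 10 were lower, at summed FPKM of 1782–1867 in EAE and 1894–1986 in PBS libraries. The endothelial list had 7 of 10 markers lower (48.5–59.1 against 61.8–72.3 FPKM summed), and the neutrophil list had 7 of 11 tested markers higher (96.3–103 against 55.7–56.3 FPKM). Their part in the difference of the immediate early genes was not tested.

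In the other 10 libraries, no immediate early gene passed the test, where 0.0898% of the mRNAs tested did, and none had an unadjusted p under 0.05 (10.8% of mRNAs). All 10 log2FC were negative, from −0.024 (Nr4a1) to −0.46 (Fosb), as were those of 8660 of the 17819 mRNAs tested. The 10 genes are not independent of each other, so these signs do not count as 10 separate results. The difference between the sets in the effect of EAE was tested as an interaction in 1 edgeR fit over the 16 libraries. None of the 10 genes had an adjusted p under 0.05 (0.0615% of all mRNAs did), and 3 had an unadjusted p under 0.05 (8.03% of all mRNAs, and 3.69% with the larger EAE effect in the 6 libraries most alike, as here). Fosb differed between the sets by 1.33 log2 units (SE 0.46, adjusted p = 0.414 in edgeR). Dusp1 differed by 0.55 (SE 0.19, adjusted p = 0.414 in edgeR) and Fos by 0.75 (SE 0.33, adjusted p = 0.582 in edgeR). Without EAE 5, Fosb (1.87, adjusted p = 0.00323) and Dusp1 (0.73, adjusted p = 0.0119) passed in the same edgeR test. In that fit 43 of 17827 mRNAs passed, against 11 of 17885 with all libraries. EAE 5 was left out after the values were seen and was the highest EAE library for both genes. With any other library left out, none of the 10 genes passed.

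**Figure D4:**
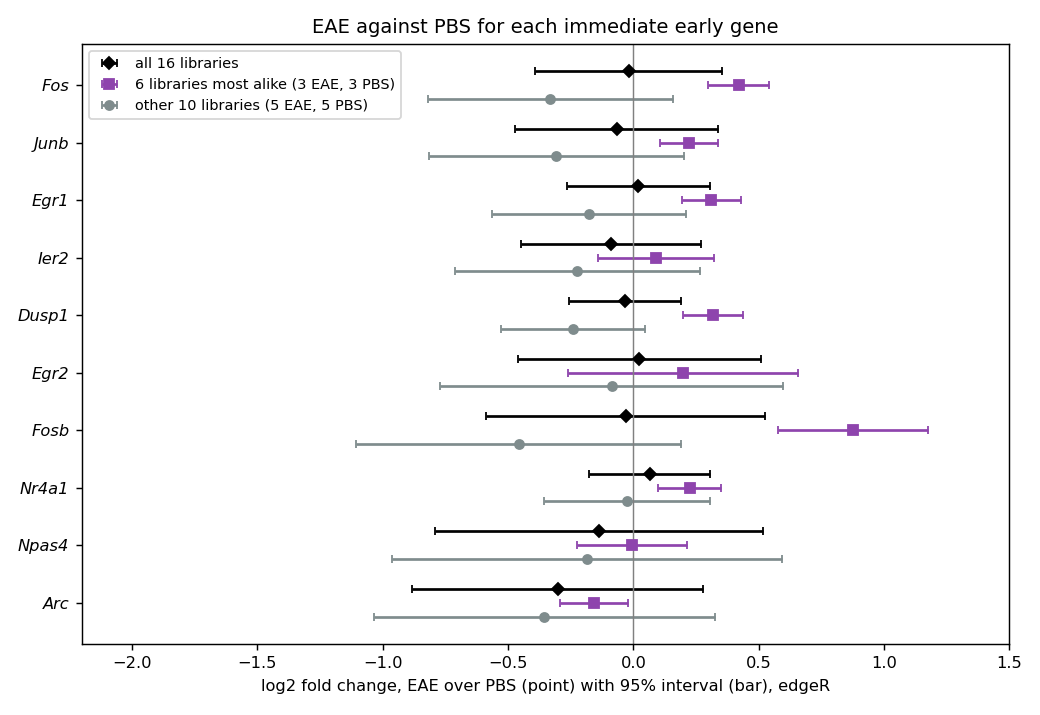
log2 fold change of EAE over PBS (horizontal axis) with its 95% interval for each gene, from edgeR fits of all 16 libraries (black diamonds), of the 6 libraries most alike (purple squares, n = 3 per group) and of the other 10 (grey circles, n = 5 per group). All black and grey intervals cross 0, and the purple ones of Fos, Junb, Egr1, Dusp1, Fosb and Nr4a1 lie above it, with that of Arc below it.

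The genes nearest to Fos were sought among 14758 mRNAs by r of the group-centred values over the 16 libraries. The 15 highest that are not among the 10 were Jun (r = 0.966), Elmsan1 (0.934), Dusp7 (0.925), Nfkbia (0.907), Cyr61 (0.900), Lingo3, Nsmf, Socs7, Rnf10, E130012A19Rik, Tiparp, Lingo1, Gp1bb, Gfod1 and Ptpn1 (0.862). Jun encodes the main AP-1 partner of Fos, Dusp7 a MAP kinase phosphatase and Nfkbia the inhibitor of NF-kappaB. Egr1 ranked 4, Junb 31, Ier2 58 and Dusp1 91 in this order, whereas Arc ranked 3370 and Npas4 3406. None of the 15 was called between the groups, with log2FC from −0.19 (Lingo3) to 0.044 (Tiparp).

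Other genes of the activity response were read by role, each as counts called at an adjusted p under 0.05 in edgeR's quasi-likelihood test (0.66% of all mRNAs were higher and 1.76% lower). Of 22 other immediate early transcription factors none was called, and their median log2FC was −0.047. The smallest p-values were those of Nr4a2 (−0.15, adjusted p = 0.170 in edgeR), a relative of Nr4a1 needed by dopamine neurons, Fosl1 (1.36, adjusted p = 0.186) and Klf2 (−0.35, adjusted p = 0.190). Of 26 immediate early signalling and RNA-decay regulators none was called (median −0.032), with Sgk1 (−0.29, adjusted p = 0.124 in edgeR), Dusp6 and Plk2 at the smallest p-values. Upstream of the response, 1 of 31 genes was higher: Elk3, a partner of SRF, had 5.603 ± 0.622 FPKM in EAE and 4.43 ± 0.391 FPKM in PBS libraries (log2FC 0.29, adjusted p = 0.0380 in edgeR).

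The 27 delayed and neuronal effector genes had a median log2FC of −0.17, with 20 log2FC negative and 2 genes called lower. Scg2, a secretogranin of dense-core vesicles, fell from 61.4 ± 4.98 FPKM (SD, n = 8) in PBS to 45.9 ± 5.94 FPKM in EAE libraries (log2FC −0.47, SE 0.070, adjusted p = 0.00233 in edgeR). Rasgrp1, a Ras activator of striatal neurons, was lower by less (log2FC −0.17, adjusted p = 0.0414 in edgeR). The neuron list moved with them, with 4 of 17 markers lower (Slc32a1, Gad1, Syt1 and Thy1) and a median log2FC of −0.16. With the level of the neuron markers as a term in the edgeR model, 0 of 17885 mRNAs had an adjusted p under 0.05. In that fit 973 had an unadjusted p under 0.05, and the calls of Scg2 and Rasgrp1, of Elk3 above and of the genes named below were all lost. The neuron marker level itself differed between the groups, at summed FPKM of 1698–1925 in EAE and 1873–2104 in PBS libraries. The term widened the SE of the log2FC from 0.18 to 0.33 for Fos and from 0.11 to 0.19 for Dusp1. This fit therefore cannot separate condition from neuron marker level, and the reason for the lost calls was not tested. Of 14 heat shock and dissociation stress genes, Hspa8 was lower (−0.28, adjusted p = 0.0175 in edgeR) and Hmox1 higher (1.03, adjusted p = 0.0436). Among the remaining markers, 2 of 17 for microglia were higher (Itgam and Trem2), 1 of 12 for astrocytes was higher (Gfap) and 2 were lower (Slc4a4 and Fgfr3), and 4 of 13 for neutrophils were higher (Ngp, Ltf, S100a8 and S100a9). No oligodendrocyte (11), endothelial (10) or T cell marker (9 tested) was called.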

How the data were processed

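Libraries labelled as microglia from 16 mouse brains were sequenced, with 1 library per mouse, and markers of neurons and astrocytes were abundant in them. Per the labels and methods, the authors demultiplexed reads with bcl2fastq, aligned them to GRCm38 with HISAT2 2.1.0 and counted them with HTSeq 0.11.2. The authors deposited raw counts per mRNA and FPKM values for the same 21878 mRNAs. FPKM was proportional to the counts in 7749 abundant mRNAs. The counts went into edgeR 4.0.16 under R 4.3.3, with TMM normalization and the two-sided quasi-likelihood test, for mRNAs with at least 16 counts in total, with Benjamini-Hochberg adjustment over all of them. Calls required an adjusted p under 0.05, with or without a |log2FC| over 1. DESeq2 1.42.0, limma 3.58.1 and other normalizations and filters were alternatives. In a simulation of the EAE against PBS comparison over 17765 genes, 99.5% of 200 changed genes were recovered at a log2 change of 1.5. Of its calls, 6.13% were wrong, and 86.5% were recovered in a like simulation of the interaction. The changed genes were drawn at random among those above a mean of 1 CPM. Recovery of smaller changes, such as those of the immediate early genes, was not simulated.

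All 10 genes were named. From the other lists, genes under an adjusted p of 0.05 or else the 3 with the smallest p were named, and the 15 mRNAs most like Fos. The members, lists and library sets were chosen with earlier results of these data known. Positions are from GENCODE M21 on GRCm38. In the treatment labels the last MOG residue runs from 55 in EAE 1 to 62 in EAE 8, while the protocol gives 35–55.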

Additional observations from a re-analysis of the deposited data

Results flagged for a closer look

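In 4 of 20 groups tested (10 genes in 2 groups of 8 libraries), the highest library was set apart from the next by more of the group's range than Dixon's 95% critical value for 8 samples allows. Chance alone gives this in about 1 of 20 groups, and the 10 genes are not independent of each other. Arc reached 39.7 FPKM, Npas4 6.79 FPKM and Nr4a1 14.5 FPKM in EAE 5. Egr1 reached 32.7 FPKM in PBS 3.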

How the results depend on the processing

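No immediate early gene had an adjusted p under 0.05 for EAE against PBS in any fit of all 16 libraries or of 15 libraries, and 6 did within the 6 libraries most alike. The count of all mRNAs called higher (17) or lower (4) became 44 and 8 in the edgeR exact test, 34 (higher) with a term for the library sets, 104 and 73 within the 6 libraries most alike, 5 and 1 within the other 10, 5 and 0 with limma on log2(FPKM + 1), and 0 and 0 with the neuron marker level as a term, where 973 mRNAs had an unadjusted p under 0.05. The lower count was 1 with library totals or filterByExpr and 2 with limma on log2(FPKM + 0.1). Without the fold threshold, 433 mRNAs became 899 in DESeq2, 745 in the exact test, 205 and 237 in limma on log2(FPKM + 0.1) and log2(FPKM + 1), 768 with the set term, 4148 and 16 within the sets and 0 with the neuron term. The 118 higher and 315 lower became 226 and 103 with library totals, 132 and 73 with log2(FPKM + 0.1) and 157 and 80 with log2(FPKM + 1). The causes were not tested.

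Signs of small log2FC turned, each time with no call outside the 6 libraries most alike. With library totals they were 0.031 (Fos), 0.019 (Fosb) and 0.017 (Dusp1). On log2(FPKM + 0.1) they were 0.0019 (Fos), 0.0014 (Junb) and 0.0035 (Dusp1), and on log2(FPKM + 1) 0.0031, 0.00019 and 0.0038. The set term gave 0.032 for Fosb. Within the 6 libraries most alike, the values were 0.42 (Fos), 0.88 (Fosb), 0.22 (Junb), 0.090 (Ier2) and 0.32 (Dusp1), and within the other 10 they were −0.18 (Egr1), −0.086 (Egr2) and −0.024 (Nr4a1). The neuron term gave 0.029 (Fos), −0.60 (Egr2) and −0.076 (Nr4a1).

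Leaving out 1 library gave 11–45 higher, 1–7 lower and 144–1317 mRNAs at any fold, the last without PBS 2 and without EAE 4. The range of the log2FC was −0.10 to 0.080 for Fos, −0.27 to 0.11 for Fosb, −0.16 to 0.015 for Junb, −0.053 to 0.13 for Egr1, −0.16 to 0.12 for Egr2, −0.68 to −0.17 for Arc, −0.20 to −0.017 for Ier2, −0.56 to 0.013 for Npas4, −0.028 to 0.12 for Nr4a1 and −0.11 to 0.021 for Dusp1. Interactions called among the 10 genes numbered 0–2 (2 without EAE 5), an alternative chosen after seeing the data, and relations of Fos 4–7.

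Same-numbered samples of the groups were not treated as pairs, and the labels do not say whether they shared any handling. Their deviations correlated at −0.24 to 0.58. EAE 4 (0.58) and EAE 8 (0.29) correlated best with the PBS library of the same number, and the other EAE libraries did not. PBS 8 was also the best match of EAE 1, 2, 3, 6 and 7, so its match with EAE 8 is not particular to the number. The replicate block gave 15 mRNAs higher and 1 lower, 517 at any fold and no immediate early gene, with a log2FC of −0.015 for Egr2. With 8 mice per group and 1 library per mouse, the intervals rest on the spread between libraries, and the block changed no call among the 10 genes.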

Other observations

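A second gene of reference was chosen after the values were seen. The mRNAs nearest to Arc, by r of group-centred log2(CPM + 0.5) over the 16 libraries, were Tyro3 (0.972), a receptor kinase of the TAM family, Btg2 (0.945), an antiproliferative early response gene, Spred1 (0.944), Gpm6b (0.944) and Homer1 (0.938), which encodes a postsynaptic scaffold with an activity-induced short form. Hsph1, Nwd1, Cxcl14, Mobp, Arap2, Tsc22d3, Prex2, Pms1, Rgs2 and Idi1 (0.903) followed. Npas4 ranked 2 and Nr4a1 64 in this order, while Fos ranked 4306 and Junb 7779. None of these 15 mRNAs was called between EAE and PBS-treated mice in the edgeR test, and these values are descriptive, with no test.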
